A study of Mus musculus with 9 samples.

Results

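The 10 genes described here encode receptors that restrain T cells and that accumulate on cells stimulated for a long time: Pdcd1 (PD-1), Havcr2 (TIM-3), Lag3, Tigit, Ctla4, Btla, Cd160, Cd244a (2B4), Cd101 and Cd200r1. They were picked by gene symbol from a deposited table of 22017 genes, and all 10 were listed there. Levels are in FPKM, fragments scaled to the length of the transcript and to the size of the library, so levels of different genes can be compared per length. Each of the 10 genes was above 1 FPKM in each of the 9 libraries, the lowest value being 1.31 FPKM for Cd244a in a Th17-derived Th1 library.

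The study measured messenger RNA of mouse T helper cultures in 3 groups of 3 libraries, all from naive splenic T cells of wild-type C57BL/6 mice. Every culture had a first activation of 3 days through the antigen receptor (anti-CD3 at 5 ug/mL) and through CD28 (its antibody at 1 ug/mL; a second text of the submitters writes mg/mL). IL-2 (100 U/mL) was present from day 5, a second activation with 0.05 ug/mL of each antibody began on day 7, and cells were lysed for RNA on day 10. Th1 cultures (Th1-1 in the labels) were kept throughout with IL-12 (10 ng/mL) and anti-IL-4. Th17 cultures (Th17-17) were kept throughout with TGF-beta (1 ng/mL), IL-6 (20 ng/mL), IL-1beta (10 ng/mL) and antibodies against IFN-gamma, IL-12 and IL-4. Th17-derived Th1 cultures (Th17-1) had the Th17 condition first and the Th1 condition from day 7 on. The labels do not say whether the 3 libraries of a group came from separate mice or cultures, so p-values measure the spread between these libraries, which may be technical.

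As background, inhibitory receptors sit on the surface of activated T cells and dampen signals of the antigen receptor and of CD28 when they meet their ligands. Several carry tyrosine motifs in their tails that recruit phosphatases, while CTLA-4 competes with CD28 for CD80 and CD86. In chronic infection and in tumours, exhausted T cells carry several of these receptors at once. A progenitor form of these cells keeps the transcription factor TCF-1 (Tcf7), and a terminal form is known for high TIM-3 and, on CD8 cells, CD101.

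Some libraries stood apart from the others of their group. Th1 replicate 2 differed by more than 1 on the log2 scale from both other Th1 libraries in 290 of 10538 genes tested, among them Lag3 and Ctla4, and the counts were 123 for Th17-derived Th1 replicate 3 and 102 for Th17 replicate 3, against 8 to 22 for the other 6 libraries. Pearson correlations within groups across genes were 0.964 to 0.993. The CD8 genes Cd8a and Cd8b1 were at 104 to 141 and 48.1 to 62.9 FPKM in the 3 libraries numbered 3, and at 15.3 to 54.9 and 4.53 to 24.1 FPKM in the other 6. Cd4 was at 52.9 to 96.9 FPKM in the former and 81.1 to 124 in the latter. In bulk RNA, fewer cells of a type and less RNA per cell cannot be told apart. The 7 general T cell genes summed to 1123 to 1435 FPKM in every library, while the lists for B cells (0.844 to 4.01), dendritic cells and macrophages (0.922 to 5.66, with Flt3 at 0), mast cells and basophils (0 to 1.11) and erythroid cells (0 to 0.557, with Hbb-bs at 0) were low.

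Between Th1 and Th17 cultures, 4 of the 10 receptor genes were higher in Th1 (Pdcd1, Havcr2, Lag3, Tigit), 3 were lower (Cd101, Cd244a, Cd200r1) and 3 were not called (Ctla4, Btla, Cd160). Calls are limma tests on log2(FPKM + 1) at a Benjamini-Hochberg adjusted p below 0.05 over all genes tested. Of all genes tested, 14.0% were called higher and 28.9% lower in this comparison. Against Th17, Th17-derived Th1 cultures had 5 receptor genes higher and 3 lower, where 6.43% and 9.49% of all genes were called. Against Th1, they had 4 higher and 4 lower, where 5.67% and 4.81% of all genes were called. Each group enters a pair of these comparisons, so they are not independent.

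The median difference of the 10 receptor genes was -0.04 for Th1 against Th17, 1.10 for Th17-derived Th1 against Th17 and -0.15 for Th17-derived Th1 against Th1, beside -0.17, -0.12 and 0.05 for all genes tested. With median-ratio scaling, the medians of all genes became -0.01, -0.01 and 0.00, and the share of calls that were higher moved from 32.7% to 53.9%, from 40.4% to 63.1% and from 54.1% to 45.5%. Under that scaling 6, 8 and 6 of the 7, 8 and 8 receptor calls were kept and none of the 10 genes turned direction in any comparison; the calls lost were Cd200r1 in Th1 against Th17 (limma adjusted p = 0.06115) and, in Th17-derived Th1 against Th1, Pdcd1 (0.05228) and Ctla4 (0.0599).

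**Figure D1:**
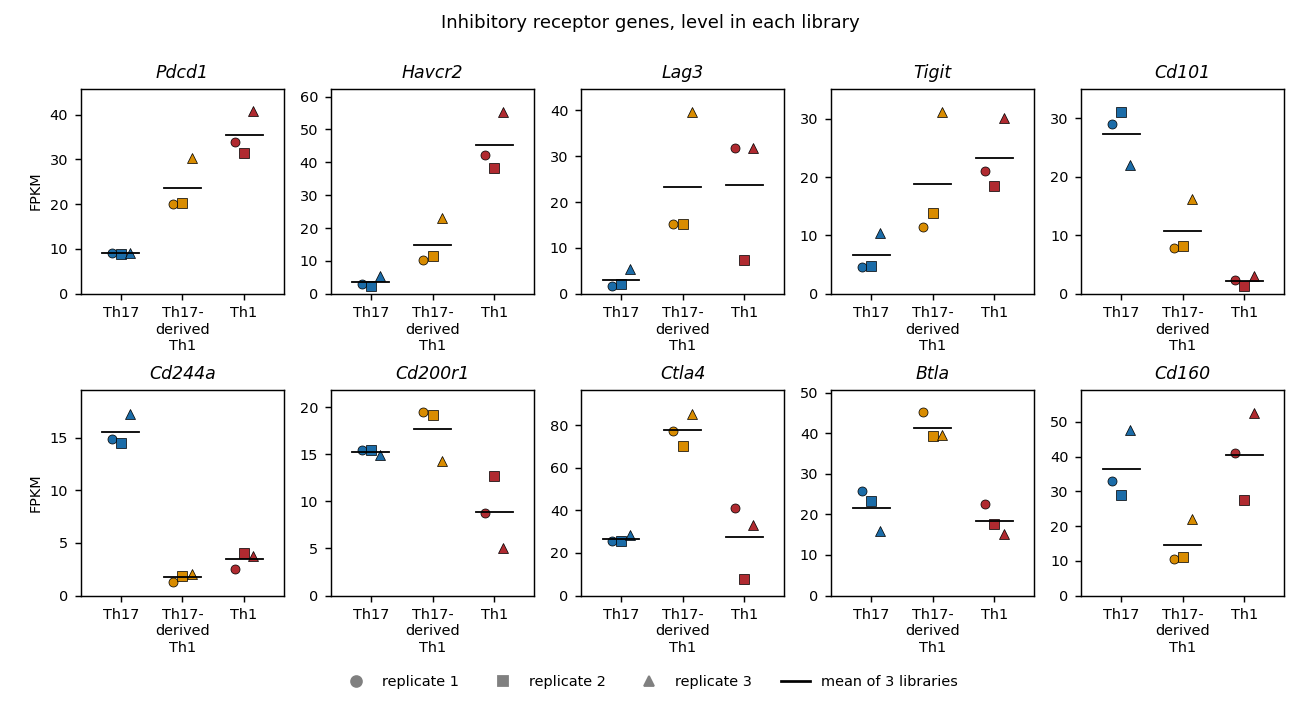
FPKM of the 10 receptor genes (y axis, linear, own scale for each gene) in the 3 groups (x axis); symbols are single libraries by replicate number and bars are means of 3 libraries. Havcr2 ran from 2.51 to 5.53 in Th17, 10.2 to 22.9 in Th17-derived Th1 and 38.4 to 55.2 in Th1, whereas Ctla4 and Btla were highest in the Th17-derived Th1 libraries and Cd160 was lowest there.

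Havcr2 encodes TIM-3, a receptor known for its place on Th1 cells, with galectin-9 among its ligands. It was at 42.3, 38.4 and 55.2 FPKM in the Th1 libraries (replicates 1, 2 and 3), 10.2, 11.6 and 22.9 in Th17-derived Th1 and 2.98, 2.51 and 5.53 in Th17. The 3 groups did not overlap. Th1 exceeded Th17 by 3.35 ± 0.315 on the log2 scale (SE; 10.2-fold; limma adjusted p = 0.0001275), and Th17-derived Th1 exceeded Th17 by 1.74 ± 0.315 (3.33-fold; limma adjusted p = 0.006937). Th17-derived Th1 lay below Th1 by a log2 difference of -1.61 ± 0.315 (limma adjusted p = 0.01461), a call that was lost without Th1 replicate 3 or Th17-derived Th1 replicate 1 or 2 (limma adjusted p = 0.06423 to 0.07074).

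Pdcd1, the gene of PD-1, followed the same order of groups with a narrower range. Its levels were 34.0, 31.4 and 40.8 FPKM in Th1, 20.1, 20.2 and 30.3 in Th17-derived Th1 libraries and 9.0, 8.93 and 9.13 in Th17. No library of one group reached into another, and the Th17 libraries were within 1.02-fold of each other. The differences from Th17 were 1.85 ± 0.16 for Th1 (SE; 3.61-fold; limma adjusted p = 8.596e-05) and 1.27 ± 0.16 for Th17-derived Th1 (2.41-fold; limma adjusted p = 0.001325). Th17-derived Th1 was at -0.59 ± 0.16 against Th1, just inside the threshold (limma adjusted p = 0.04994). That call was lost in 7 of 9 fits that each left out 1 library (limma adjusted p = 0.06464 to 0.1894): it was kept without Th1 replicate 2 and without Th17-derived Th1 replicate 3.

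Lag3 binds MHC class II and dampens CD4 help. It was at 31.8, 7.43 and 31.8 FPKM in Th1, 15.3, 15.2 and 39.5 in Th17-derived Th1 libraries and 1.80, 2.07 and 5.30 in Th17. All libraries of both groups that had IL-12 were above all Th17 libraries, but those groups overlapped each other, and Th1 replicate 2 was 4.28-fold below the highest Th1 library. Th1 exceeded Th17 by 2.46 ± 0.581 (SE; 5.52-fold; limma adjusted p = 0.009257). Th17-derived Th1 exceeded Th17 by 2.54 ± 0.581 (5.83-fold; limma adjusted p = 0.01941), which was lost without Th17-derived Th1 replicate 3 or Th17 replicate 1 or 2 (limma adjusted p = 0.05965 to 0.08669).

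For Lag3 the order of Th17-derived Th1 and Th1 was not settled. Their log2 difference was 0.08 with a 95% interval of -1.23 to 1.39 (limma adjusted p = 0.9439). Without Th1 replicate 2 it was -0.57 (limma adjusted p = 0.3815), and without Th17-derived Th1 replicate 3 it was -0.36 (limma adjusted p = 0.7114). Leaving out the 3 libraries that stand apart, a choice made after seeing the data, gave -1.01 (limma adjusted p = 8.337e-05).

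Tigit competes with the activating receptor Cd226 for Pvr. Its levels were 21.1, 18.4 and 30.2 FPKM in Th1, 11.5, 13.8 and 31.3 in Th17-derived Th1 libraries and 4.60, 4.70 and 10.4 in Th17. Neither of the groups with IL-12 overlapped Th17, though Th17-derived Th1 replicate 1 exceeded Th17 replicate 3 by little. Th1 was higher than Th17 by 1.73 ± 0.390 (SE; 3.32-fold; limma adjusted p = 0.007512). Th17-derived Th1 was higher by 1.35 ± 0.390 (2.54-fold; limma adjusted p = 0.04686), and this call was lost in 7 of 9 fits that left out 1 library (limma adjusted p = 0.05239 to 0.1621), being kept only without Th1 replicate 2 or Th17 replicate 3. Between Th17-derived Th1 and Th1 the difference was -0.39, with a 95% interval of -1.26 to 0.49 (limma adjusted p = 0.5665). With array weights, which count libraries that stand apart less, it was -0.92 (limma adjusted p = 0.00952), and without the 3 libraries that stand apart -0.95 (limma adjusted p = 0.001974), so both settings called Tigit lower than in Th1.

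The promoters of 3 of these 4 genes are shown because their transcripts moved together, beside that of Cd101, which moved the other way. Each run covers 250 bases before to 50 bases after a RefSeq start site (GRCm38.p6), on the strand of the gene, with motif matches in capitals: the Pdcd1 window is chr1:94052504-94052803 (minus strand), that of Havcr2 chr11:46454681-46454980 (plus), that of Tigit chr16:43664135-43664434 (minus) and that of Cd101 chr3:101029504-101029803 (minus).
Pdcd1: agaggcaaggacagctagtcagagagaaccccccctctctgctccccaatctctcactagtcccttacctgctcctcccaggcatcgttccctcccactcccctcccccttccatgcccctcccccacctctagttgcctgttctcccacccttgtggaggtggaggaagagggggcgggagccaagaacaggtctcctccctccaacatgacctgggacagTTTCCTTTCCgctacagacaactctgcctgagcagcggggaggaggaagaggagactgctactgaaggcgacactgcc
Havcr2: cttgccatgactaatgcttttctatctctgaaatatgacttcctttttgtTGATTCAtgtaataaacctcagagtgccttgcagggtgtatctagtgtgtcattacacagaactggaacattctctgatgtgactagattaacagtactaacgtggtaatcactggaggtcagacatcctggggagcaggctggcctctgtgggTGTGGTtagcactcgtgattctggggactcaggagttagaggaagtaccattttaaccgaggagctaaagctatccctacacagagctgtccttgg
Tigit: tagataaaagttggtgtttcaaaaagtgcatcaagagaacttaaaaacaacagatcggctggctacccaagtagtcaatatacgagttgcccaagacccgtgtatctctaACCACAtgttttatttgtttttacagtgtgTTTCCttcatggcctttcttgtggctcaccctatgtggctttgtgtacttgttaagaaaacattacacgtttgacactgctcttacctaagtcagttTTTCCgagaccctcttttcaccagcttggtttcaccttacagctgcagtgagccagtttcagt
Cd101: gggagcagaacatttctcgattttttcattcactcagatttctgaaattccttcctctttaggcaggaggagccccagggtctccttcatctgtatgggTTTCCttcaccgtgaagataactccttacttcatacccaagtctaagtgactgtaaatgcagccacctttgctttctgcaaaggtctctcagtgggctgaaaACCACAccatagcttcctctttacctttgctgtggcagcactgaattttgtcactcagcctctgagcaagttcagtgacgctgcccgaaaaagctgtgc
The capitals mark the NFAT core GGAAA (read as TTTCC on the other strand), the AP-1 element TGANTCA and the RUNX element TGTGGT, which reads ACCACA on the other strand. The T-box element GGTGTGA and the STAT element TTCNNNGAA were searched too, on both strands, and no match overlapped another in these 4 windows.

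In Pdcd1 a pair of adjoining NFAT matches began at -28 and -23, counted from the start site. Havcr2 held an AP-1 match at -200 and a RUNX match at -46. Tigit had a RUNX match at -140 and NFAT matches at -110 and -13. Cd101 had an NFAT match at -151 and a RUNX match at -49. RefSeq windows were found for 8 of the 10 genes (9 windows, Lag3 and Cd200r1 without an entry): 6 genes held an NFAT core, 5 a RUNX element, 2 an AP-1 element (Havcr2, Cd244a), and 1 each a T-box and a STAT element (Cd160 for both). Among 32851 promoter windows of this length, 61.3% held the NFAT core, 16.8% the RUNX, 7.81% the AP-1, 8.3% the STAT and 3.98% the T-box element. A match is a run of letters and shows no binding.

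Cd101, an immunoglobulin-family receptor that restrains T cell activation, showed the reverse order of groups. It was at 29.1, 31.0 and 22.1 FPKM in Th17, 7.78, 8.13 and 16.2 in Th17-derived Th1, and 2.42, 1.32 and 2.99 in Th1. The 3 groups did not overlap. Th1 was below Th17 by a log2 difference of -3.15 ± 0.287 (SE; limma adjusted p = 0.0001065), and Th17-derived Th1 was above Th1 by 1.81 ± 0.287 (3.52-fold; limma adjusted p = 0.006154). Th17-derived Th1 was below Th17 by -1.34 ± 0.287 (limma adjusted p = 0.01459), which was lost without Th17-derived Th1 replicate 1 or 2 or Th17 replicate 1 or 2 (limma adjusted p = 0.05625 to 0.07004).

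Cd244a encodes 2B4, a receptor of the SLAM family that binds CD48 and is best known from NK and CD8 T cells. Its levels were 14.9, 14.5 and 17.3 FPKM in Th17, 2.55, 4.04 and 3.80 in Th1, and 1.31, 1.88 and 2.09 in Th17-derived Th1. All 3 Th17 libraries lay far above the other 6, and Th17-derived Th1 lay below Th1 without overlap. Th17-derived Th1 differed from Th17 by -2.59 ± 0.165 (SE; limma adjusted p = 5.03e-05) and Th1 from Th17 by -1.90 ± 0.165 (limma adjusted p = 8.547e-05). The smaller difference between Th17-derived Th1 and Th1 was -0.69 ± 0.165 (limma adjusted p = 0.03179), and it was lost without Th1 replicate 3, Th17-derived Th1 replicate 1 or 2, or Th17 replicate 1 or 2 (limma adjusted p = 0.05239 to 0.1184). The 4 NK cell genes summed to 8.71 to 19.5 FPKM in Th17, 3.61 to 7.62 in Th1 and 2.12 to 7.98 in Th17-derived Th1, with Ncr1 below 1 FPKM in every library. Of the 3 NK genes tested, Klrb1c and Klri2 were lower in Th1 than in Th17 (-1.47 and -0.77; limma adjusted p = 0.005022 and 0.02016). Klre1 was not called there. In Th17-derived Th1 against Th17, 1 of the 3 was called lower. Cd8a was at 37.4, 54.9 and 141 FPKM in Th17 (replicates 1, 2 and 3), 15.3, 19.0 and 117 in Th1 and 17.4, 27.4 and 104 in Th17-derived Th1. Neither Cd8a nor Cd8b1 was called in any comparison. The Cd244a differences of both other groups from Th17 stayed called with the mean Cd8a and Cd8b1 level as a term in the fit. That term holds no NK gene. The part of NK or CD8 T cells in the Cd244a result was not tested.

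Cd200r1 is the receptor for CD200. It was at 15.4, 15.5 and 14.9 FPKM in Th17, 19.4, 19.2 and 14.3 in Th17-derived Th1, and 8.75, 12.7 and 4.99 in Th1. The Th1 libraries were below all others, while Th17-derived Th1 and Th17 overlapped. Th1 differed from Th17 by -0.81 ± 0.257 (SE; limma adjusted p = 0.03184) and Th17-derived Th1 from Th1 by 0.99 ± 0.257 (1.99-fold; limma adjusted p = 0.04081). The first was lost without Th1 replicate 1 or 3 or any 1 Th17 library (limma adjusted p = 0.06332 to 0.08419), and the second also without Th17-derived Th1 replicate 1 or 2 (limma adjusted p = 0.05603 to 0.15). Cd200r1 belongs to a family of similar neighbouring genes, and how reads that fit several places were counted is not given in the sources used here, so its level is uncertain.

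Ctla4 and Btla, both of the CD28 receptor family, were highest in Th17-derived Th1. Ctla4 was at 77.3, 70.4 and 85.4 FPKM there, 25.8, 25.8 and 28.3 in Th17, and 41.0, 7.85 and 33.3 in Th1. Every Th17-derived Th1 library was above every other library, and Th1 replicate 2 was 5.23-fold below the highest Th1 library. Th17-derived Th1 exceeded Th1 by 1.75 ± 0.476 (SE; 3.36-fold; limma adjusted p = 0.04916), and it differed from Th17 by 1.51 ± 0.476 (2.85-fold), with a 95% interval of 0.43 to 2.58, which did not pass (limma adjusted p = 0.06142).

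The Ctla4 calls depended on the libraries and settings used, among them Th1 replicate 2, which enters the shared estimate of the spread. Without it, Th17-derived Th1 exceeded Th17 by 1.51 (limma adjusted p = 7.42e-05) and Th1 by 1.05 (limma adjusted p = 0.001791), and the sign of Th1 against Th17 turned from -0.24 (95% interval -1.31 to 0.84; limma adjusted p = 0.7077) to 0.46 (limma adjusted p = 0.012). The difference from Th17 was also called without Th1 replicate 1 (limma adjusted p = 0.04526). In all, 7 of 24 alternatives called it, among them a fit of those 2 groups alone, which holds no Th1 library. The difference from Th1 was lost in the 7 fits that left out Th1 replicate 3 or any library of the other 2 groups (limma adjusted p = 0.06535 to 0.1388). Over all 24 alternatives that call was lost in 16, among them quantile normalization and a fit of the 2 groups compared.

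Btla, a receptor for HVEM (Tnfrsf14), was at 45.3, 39.2 and 39.6 FPKM in Th17-derived Th1, 25.6, 23.2 and 15.8 in Th17, and 22.5, 17.5 and 15.2 in Th1. The Th17-derived Th1 libraries were above all others, and the remaining 2 groups overlapped. It exceeded Th1 by 1.14 ± 0.189 (SE; 2.21-fold; limma adjusted p = 0.00746) and Th17 by 0.93 ± 0.189 (1.91-fold; limma adjusted p = 0.01133). The latter was lost without Th17-derived Th1 replicate 1 (limma adjusted p = 0.05038). Th1 and Th17 differed by -0.21, with a 95% interval of -0.63 to 0.22 (limma adjusted p = 0.3955).

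Cd160, another receptor for HVEM that is known from NK and CD8 T cells, was lowest in Th17-derived Th1. It was at 10.5, 11.2 and 22.0 FPKM there, 41.0, 27.6 and 52.6 in Th1, and 32.9, 28.9 and 47.7 in Th17. The Th17-derived Th1 libraries were below all others, and Th1 and Th17 overlapped. The difference was -1.44 ± 0.317 from Th1 (SE; limma adjusted p = 0.02295) and -1.31 ± 0.317 from Th17 (limma adjusted p = 0.0247). The first was lost without Th1 replicate 1 or 3 or Th17-derived Th1 replicate 1 or 2 (limma adjusted p = 0.0671 to 0.1004), and the second without Th17-derived Th1 replicate 1 or 2 or any 1 Th17 library (limma adjusted p = 0.05232 to 0.08917). Th1 and Th17 differed by 0.13, with a 95% interval of -0.59 to 0.84 (limma adjusted p = 0.764), and the sign turned without Th1 replicate 3 (-0.08) or Th17 replicate 2 (-0.02).

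**Figure D2:**
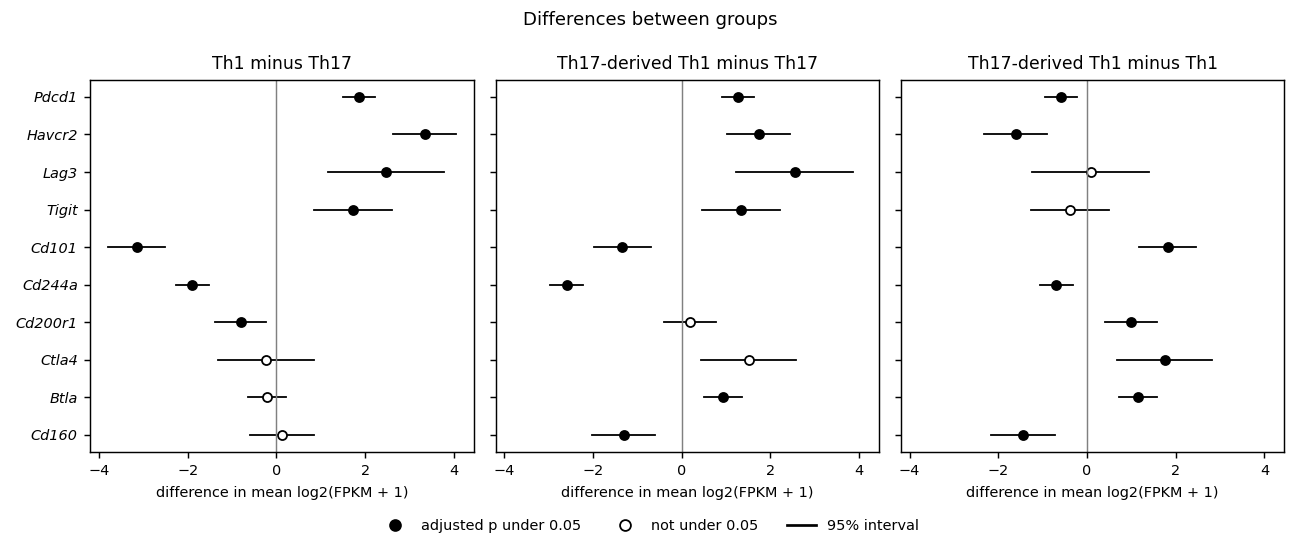
Difference in mean log2(FPKM + 1) (x axis) of the 10 receptor genes in the 3 comparisons; points are differences, lines 95% intervals from the limma fit, and filled points have an adjusted p below 0.05. In Th17-derived Th1 against Th1 (right), 4 genes are filled on each side of 0 and the intervals of Lag3 and Tigit span 0.

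The libraries numbered 3, which had the highest Cd8a and Cd8b1 values, also had the highest levels of 4 receptor genes in all 3 groups (Pdcd1, Havcr2, Tigit, Cd160). On the log2 scale, replicate 3 was above the mean of replicates 1 and 2 by 0.59, 1.24 and 1.02 for Tigit in Th1, Th17-derived Th1 and Th17, and by 0.98, 1.32 and 1.10 for Lag3. Cd160 was above by 0.63, 0.96 and 0.61. Btla and Cd200r1 were highest in replicate 3 in none of the groups. The same offsets were 2.71, 2.20 and 1.61 for Cd8a, and -0.80, 0.12 and -0.80 for Cd4.

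With the CD8 level of each library as a term in the fit, 7 of 7, 8 of 8 and 7 of 8 calls were kept in the 3 comparisons (Th1 against Th17, Th17-derived Th1 against Th17 and against Th1); the call lost was Ctla4 in Th17-derived Th1 against Th1 (limma adjusted p = 0.05658). With replicates 1 and 2 alone, 6, 8 and 5 were kept, and Tigit in Th17-derived Th1 was above Th17 by 1.27 (limma adjusted p = 0.004957). Cd200r1 in Th1 against Th17 was then lost (-0.51, limma adjusted p = 0.07258), as were Ctla4 (1.96, 0.1503), Cd244a (-0.71, 0.11) and Cd200r1 (0.81, 0.05177) in Th17-derived Th1 against Th1.

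**Figure D3:**
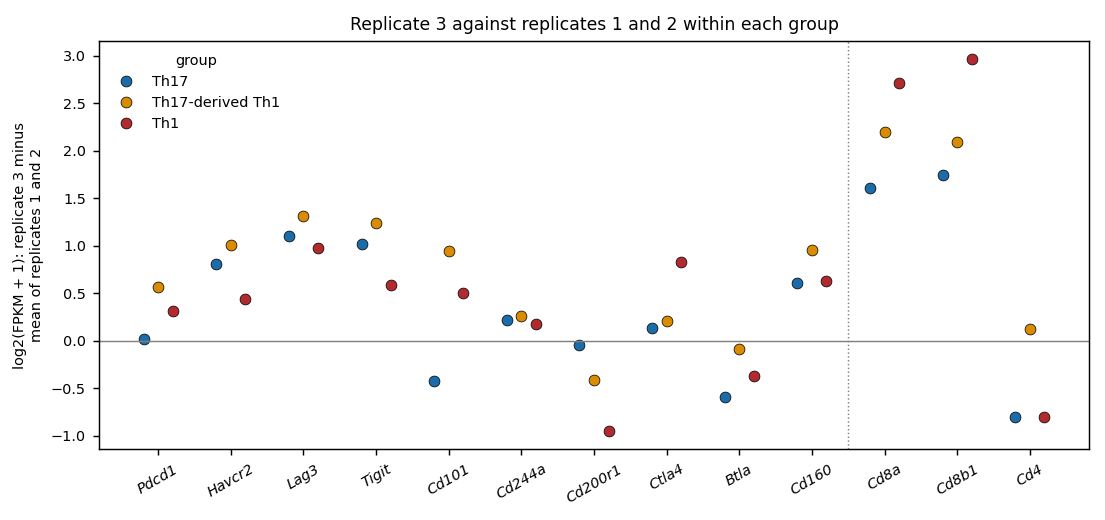
Difference in log2(FPKM + 1) between replicate 3 and the mean of replicates 1 and 2 (y axis) for the 10 receptor genes and, right of the dotted line, Cd8a, Cd8b1 and Cd4; each point is 1 group. Lag3 and Tigit lay above 0 in all 3 groups (0.59 to 1.32), Btla and Cd200r1 below 0 (-0.95 to -0.05), and the CD8 genes between 1.61 and 2.96.

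The receptor transcripts were also compared by their sum and by its makeup. The 10 genes summed to 247, 167 and 271 FPKM in Th1 (228 ± 54.6, SD, n = 3), 219, 211 and 304 in Th17-derived Th1 (244 ± 51.4) and 162, 157 and 176 in Th17 (165 ± 10.1). Ctla4 made up 32.3% ± 3.73 of that sum in Th17-derived Th1 (SD, n = 3), 16.1% ± 0.265 in Th17 and 11.2% ± 6.01 in Th1. Havcr2 made up 20.2% ± 2.99 in Th1 but 5.91% ± 1.48 in Th17-derived Th1 libraries and 2.19% ± 0.823 in Th17. Cd101 held 16.7% ± 3.77 in Th17 but 0.959% ± 0.155 in Th1. These sums and shares were not tested.

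Within each group the leading receptors differed too. In Th1 the mean level was highest for Havcr2 (45.3 ± 8.78 FPKM, SD, n = 3), then Cd160 (40.4 ± 12.5) and Pdcd1 (35.4 ± 4.88), and the ranges of neighbours overlapped down to Btla (18.4 ± 3.74). In Th17-derived Th1, Ctla4 (77.7 ± 7.52) stood above the others without overlap and Cd244a (1.76 ± 0.402) below them, while Btla (41.4 ± 3.43), second by mean, overlapped Lag3, whose replicate 3 was at 39.5 FPKM against 39.2 for Btla replicate 2. In Th17, Cd160 (36.5 ± 9.90), Cd101 (27.4 ± 4.69) and Ctla4 (26.6 ± 1.47) led, and Lag3 (3.06 ± 1.95) and Havcr2 (3.67 ± 1.62) were lowest.

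**Figure D4:**
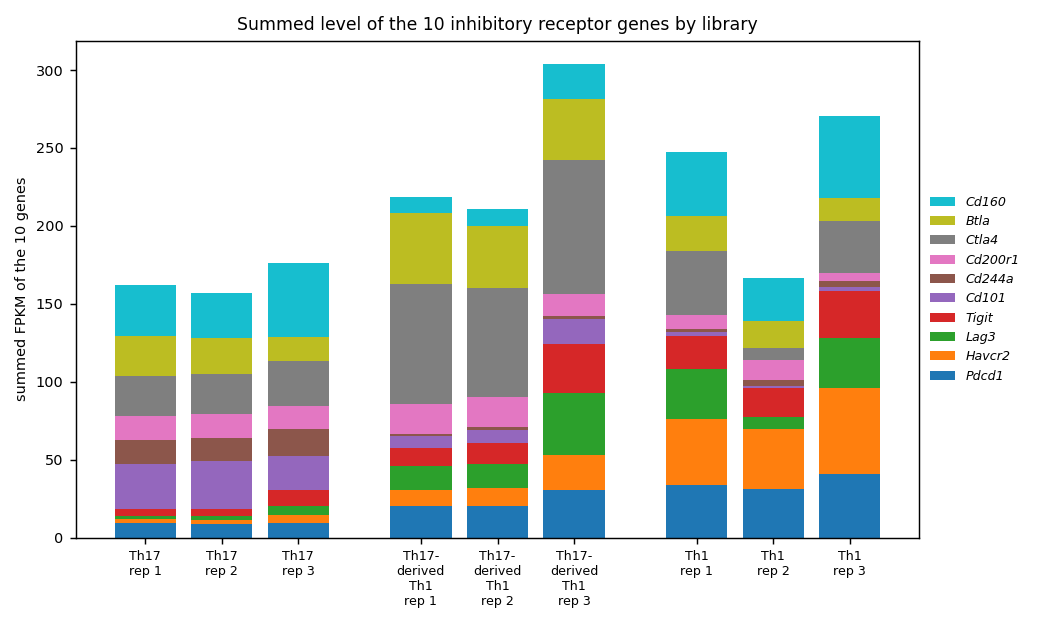
Stacked FPKM of the 10 receptor genes (y axis, from 0) in each of the 9 libraries (x axis, by group and replicate number). Totals run from 157 to 176 in Th17, 211 to 304 in Th17-derived Th1 and 167 to 271 in Th1, with Ctla4 the thickest layer in each Th17-derived Th1 library.

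For the 7 genes called between Th1 and Th17, the place of Th17-derived Th1 between them was expressed as a share of the log2 distance, 0 being the Th17 mean and 1 the Th1 mean. It was 0.684 ± 0.175 for Pdcd1 (SD over the 3 Th17-derived Th1 libraries), 0.519 ± 0.176 for Havcr2, 1.03 ± 0.309 for Lag3 and 0.777 ± 0.421 for Tigit. Among the genes higher in Th17 it was 0.424 ± 0.173 for Cd101, 1.36 ± 0.115 for Cd244a and -0.23 ± 0.292 for Cd200r1. Cd244a thus lay beyond the Th1 mean in all 3 libraries (1.27 to 1.49), while the Cd200r1 libraries lay on both sides of the Th17 mean (-0.41 to 0.11). These places are descriptions that share the Th17 libraries with the comparisons above.

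The ligands of the receptors were read from a list of 15 genes, of which 11 were tested and Ceacam1, Fgl1, Nectin2 and Nectin3 were too low. In Th1 against Th17, 6 were higher, 3 lower and 2 not called (median 0.47). The counts were 3, 2 and 6 for Th17-derived Th1 against Th17 (median 0.29) and 1, 2 and 8 against Th1 (median 0.13). Beside this, 14.0%, 6.43% and 5.67% of all genes were called higher in these comparisons, and 28.9%, 9.49% and 4.81% lower. T cells are only 1 source of these ligands in a body.

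Cd274, the gene of PD-L1, was at 17.7, 11.1 and 19.5 FPKM in Th1, 21.2, 22.2 and 24.5 in Th17-derived Th1 libraries and 6.95, 6.33 and 11.6 in Th17. It was higher than in Th17 by 0.89 in Th1 (limma adjusted p = 0.01616), where the groups overlapped, and by 1.39 in Th17-derived Th1 (limma adjusted p = 0.005396). Pdcd1lg2, the gene of the other PD-1 ligand PD-L2, was at 7.88, 6.61 and 8.81 FPKM in Th1, 2.36, 2.70 and 4.30 in Th17-derived Th1 libraries and 2.20, 1.40 and 3.22 in Th17. It was higher in Th1 than in Th17 by 1.45 (limma adjusted p = 0.001607), and lower in Th17-derived Th1 than in Th1 by a difference of -1.11 (limma adjusted p = 0.01942). The group mean of Cd274 was thus highest in Th17-derived Th1, though its difference from Th1 was not called, and that of Pdcd1lg2 was highest in Th1. Single libraries decided 2 of these calls: Cd274 in Th1 against Th17 was lost without Th1 replicate 1 or 3 or Th17 replicate 1 or 2 (limma adjusted p up to 0.06445), and Pdcd1lg2 in Th17-derived Th1 against Th1 without Th1 replicate 1 or 3 or Th17-derived Th1 replicate 1 or 2 (up to 0.08581).

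Cd80, a ligand that CTLA-4 and CD28 share, was at 21.1, 17.7 and 21.1 FPKM in Th1, 6.63, 6.32 and 9.13 in Th17-derived Th1 libraries and 2.81, 2.30 and 3.37 in Th17, and all 3 comparisons were called (2.46, 1.12 and -1.34; limma adjusted p = 1.751e-05, 0.002037 and 0.00184). Cd86, the other such ligand, was at 9.08, 6.02 and 4.65 FPKM in Th17-derived Th1, 5.07, 2.60 and 2.92 in Th1 and 1.98, 1.88 and 1.23 in Th17. It was above Th17 by 1.46 in Th17-derived Th1 (limma adjusted p = 0.005711) and by 0.72 in Th1 (limma adjusted p = 0.04635). The latter call was lost in 6 of 9 fits without 1 library (limma adjusted p up to 0.1503). Th17-derived Th1 and Th1 overlapped for Cd86, and no difference between them was called. Lgals9, a TIM-3 ligand, and Hmgb1 were lower in both groups with IL-12, by differences from Th17 of -0.88 and -0.75 for Lgals9 and -0.80 and -0.47 for Hmgb1 in Th1 and Th17-derived Th1, the last of which was lost without Th17 replicate 1 (limma adjusted p = 0.05195). Cd200, the ligand of the Cd200r1 product, was at 1.13, 0.626 and 0.674 FPKM in Th1, which was lower than Th17 by a difference of -1.20 (limma adjusted p = 0.003175). It was 1.49 higher in Th17-derived Th1 than in Th1 (limma adjusted p = 0.005011). Tnfrsf14, the HVEM gene bound by the Btla and Cd160 products, and Cd48, the ligand of 2B4, were called in none of the 3 comparisons. Over the 9 libraries Tnfrsf14 was at 18.3 to 45.5 FPKM and Cd48 at 107 to 146 FPKM.

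**Figure D5:**
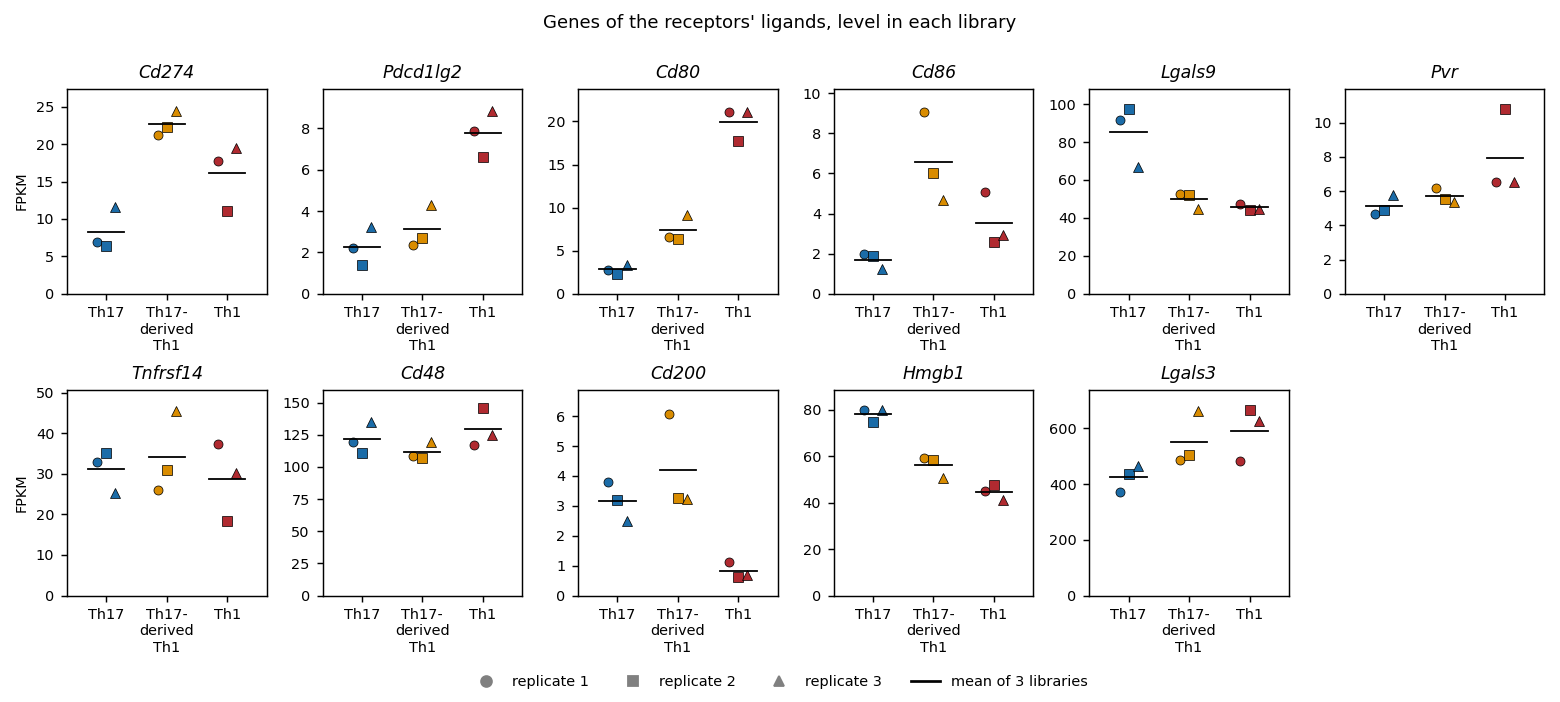
FPKM (y axis, linear, own scale for each gene) of the 11 tested ligand genes in the 3 groups (x axis); symbols are single libraries and bars are means of 3 libraries. Cd80 was at 17.7 to 21.1 in Th1 and at most 9.13 elsewhere. Cd274 was highest in Th17-derived Th1 (21.2 to 24.5), without a call against Th1.

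The list of activating counterparts had 13 genes, all tested. They were receptors that share ligands or families with the inhibitory ones, and costimulatory TNF receptor family genes (Tnfrsf4, Tnfrsf9, Tnfrsf18 and Cd27). In Th1 against Th17, 7 were higher and 3 lower (median 0.53), in Th17-derived Th1 against Th17, 7 were higher and 2 lower (median 0.77), and against Th1, 4 were higher and 3 lower (median -0.01). Over all genes tested, the shares called higher and lower were 14.0% and 28.9%, 6.43% and 9.49%, and 5.67% and 4.81%. Tnfrsf4, Tnfrsf9 and Tnfrsf18 were among those higher in both comparisons with Th17, and Cd27 was among those lower in Th1 against Th17. When 1 library was left out, Tnfrsf4 in Th1 was lost in 6 of 9 fits (limma adjusted p up to 0.1504). For Th17-derived Th1, Tnfrsf4 and Tnfrsf9 were each lost in 5 of 9 (up to 0.07603 and 0.1288). Cd27 was lost in 2 of 9 (up to 0.08265), while the Tnfrsf18 calls and that of Tnfrsf9 in Th1 were kept throughout. Cd28, which competes with Ctla4 for ligands, was higher than in Th17 by 1.26 in Th1 (limma adjusted p = 0.00165) and by 1.22 in Th17-derived Th1 (limma adjusted p = 0.004574). Cd226, which competes with Tigit, was lower in Th17-derived Th1 than in Th17 (-1.24; limma adjusted p = 0.001354) and than in Th1 (-1.23; limma adjusted p = 0.002756). Icos, a costimulatory relative of Cd28, was higher in Th17-derived Th1 than in both other groups (1.18 and 0.64; limma adjusted p = 0.002817 and 0.04916), the second call being kept only without Th1 replicate 1 or 2 when 1 library was left out (limma adjusted p up to 0.1624). Cd96, a further Pvr receptor, was lower than in Th17 by differences of -1.04 in Th1 and -1.57 in Th17-derived Th1. A place on this list, as for Cd96, does not show that a gene activates T cells. Slamf1, a self-binding SLAM receptor, was highest in Th1 (1.81 above Th17), and Slamf6 was higher in Th17-derived Th1 than in Th1 by 1.42 (limma adjusted p = 0.02531), which was lost without Th1 replicate 3 or any 1 Th17-derived Th1 library (up to 0.08058).

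Of 18 genes listed as signalling partners, 17 were tested. The list also holds genes of receptor shedding and transport (Adam10, Adam17, Lrba, Trat1 and Ap2m1). In Th1 against Th17, 3 were higher and 3 lower (median -0.06), where 14.0% and 28.9% of all genes were called. The counts were 0 higher and 1 lower in Th17-derived Th1 against Th17 (median -0.08), and 0 higher and 1 lower against Th1 (median -0.12). Of all genes, 6.43% and 9.49% were called in the former, and 5.67% and 4.81% in the latter. At an unadjusted limma p below 0.05 the last 2 comparisons had 0 higher and 5 lower, and 1 higher and 4 lower. Ptpn6, the phosphatase SHP-1, was at 85.2, 90.5 and 91.8 FPKM in Th17, 66.8, 49.9 and 60.5 in Th1 and 58.6, 56.7 and 62.7 in Th17-derived Th1. It was lower than in Th17 in both (-0.59 and -0.58; limma adjusted p = 0.003049 and 0.008503). Dok2, an adaptor that restrains Ras signalling, was higher in Th1 than in Th17 by 0.68 (limma adjusted p = 0.003178), as was Adam17, a protease that sheds LAG-3, by 0.56 (limma adjusted p = 0.009937). Trat1, an adaptor that carries CTLA-4 to the surface, was lower in Th17-derived Th1 than in Th1 (-1.25; limma adjusted p = 0.04985), a call kept only without Th1 replicate 2 when 1 library was left out (limma adjusted p up to 0.1564). Ptpn11, the phosphatase SHP-2 that PD-1 recruits, was at 18.3 to 23.2 FPKM in all 9 libraries and was called in none of the comparisons.

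Other inhibitory receptors and related molecules came from a list of 21 genes, of which 20 were in the table and 14 were tested. Th1 against Th17 gave 5 higher and 3 lower (median 0.29), Th17-derived Th1 against Th17 gave 2 and 2 (median 0.30), and Th17-derived Th1 against Th1 gave 2 and 4 (median 0.03). Shares of all genes called higher and lower were 14.0% and 28.9%, 6.43% and 9.49%, and 5.67% and 4.81%. Lilrb4a, an immunoglobulin-like inhibitory receptor best known from myeloid cells, was at 274, 267 and 285 FPKM in Th1, 199, 152 and 185 in Th17-derived Th1 libraries and 12.6, 10.7 and 23.9 in Th17, above each of the 10 receptor genes in both groups with IL-12. It was higher than in Th17 by 4.13 in Th1 (limma adjusted p = 1.158e-05) and by 3.50 in Th17-derived Th1 (limma adjusted p = 8.687e-05). Its near copy Lilrb4b was not analysed here, and the 2 may share reads. Dendritic and macrophage genes were low in every group, summing to 1.69 to 5.66 FPKM in Th1, 0.922 to 2.29 in Th17-derived Th1 and 1.30 to 2.50 in Th17. Of the 2 that were tested, Zbtb46 was higher in Th1 than in Th17 (0.75; limma adjusted p = 0.04445) and Itgax was not called. Neither was called in Th17-derived Th1 against Th17. Lyz2 was at 0.383, 0.313 and 0.428 FPKM in Th1 and 0 in Th17. Their part in the Lilrb4a result was not tested.

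The 3 genes of adenosine signalling on this list did not share a direction. Nt5e (CD73), which makes adenosine, was highest in Th17 at 49.8, 52.5 and 31.1 FPKM, and lower by differences of -2.64 in Th1 (limma adjusted p = 3.494e-05) and -1.05 in Th17-derived Th1 (limma adjusted p = 0.006846). Adora2a, the inhibitory adenosine receptor, was higher than in Th17 by 3.22 in Th1 (limma adjusted p = 0.0003118) and 1.97 in Th17-derived Th1 (limma adjusted p = 0.00701). Entpd1 (CD39), which acts before Nt5e, was higher in Th1 than in Th17 by 1.52 (limma adjusted p = 0.002583) and lower in Th17-derived Th1 than in Th1 (-1.35; limma adjusted p = 0.01595), the latter lost without Th1 replicate 3 or Th17-derived Th1 replicate 1 or 2 (up to 0.07619). Klrg1, a receptor of terminal effector cells, was higher in Th1 than in Th17 by 2.81 and lower in Th17-derived Th1 than in Th1 (-1.99; limma adjusted p = 0.01168), which was lost without Th17-derived Th1 replicate 1 or 2 (up to 0.05876). Cd72, an inhibitory receptor best known from B cells, was at 7.02 ± 1.61 FPKM in Th17 (SD, n = 3) and lower by differences of -2.87 in Th1 and -2.10 in Th17-derived Th1 (limma adjusted p = 1.408e-05 and 0.0001947). The 5 B cell genes summed to 2.95 to 4.01 FPKM in Th17, 0.844 to 2.08 in Th1 and 1.17 to 2.40 in Th17-derived Th1, and their part in the Cd72 result was not tested.

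Among 23 transcription regulators tied to receptor expression or exhaustion, 22 were tested: 13 were higher and 5 lower in Th1 against Th17 (median 0.63), 7 higher and 3 lower in Th17-derived Th1 against Th17 (median 0.28), and 3 higher and 6 lower in Th17-derived Th1 against Th1 (median -0.43). For all genes tested, the shares were 14.0% and 28.9%, 6.43% and 9.49%, and 5.67% and 4.81%. Tbx21 (T-bet), the regulator of Th1 cells, was at 92.9, 67.5 and 97.3 FPKM in Th1, 26.7, 24.1 and 48.1 in Th17-derived Th1 libraries and 6.88, 6.30 and 12.3 in Th17, and its group order was that of Havcr2 (3.23 and 1.82 above Th17; limma adjusted p = 0.0001166 and 0.004355). Tcf7, the gene of TCF-1, was at 253, 272 and 366 FPKM in Th17-derived Th1, 419, 431 and 264 in Th17 and 79.2, 26.2 and 50.6 in Th1. It was 2.6 higher in Th17-derived Th1 than in Th1 (limma adjusted p = 0.003503) and was not called against Th17. Maf and Id3 had the same calls (2.04 and 2.08 above Th1; limma adjusted p = 0.002373 and 0.006683). Prdm1 (Blimp-1), a regulator of effector differentiation, was higher than in Th17 by 1.96 in Th1 and by 1.16 in Th17-derived Th1 (limma adjusted p = 0.0001199 and 0.003463). Foxp3, the regulator of regulatory T cells, was at 9.36, 13.2 and 9.61 FPKM in Th17, 0.378, 1.46 and 0.346 in Th1 and 2.16, 4.43 and 1.70 in Th17-derived Th1, and lower than in Th17 by differences of -2.81 and -1.69 (limma adjusted p = 0.0002719 and 0.006859). Eomes, a T-box factor related to T-bet, was at 18.8, 23.4 and 44.2 FPKM in Th17, 7.57, 17.7 and 9.11 in Th1 and 4.38, 9.40 and 6.80 in Th17-derived Th1. Its levels in Th17 were above those of all other libraries, and the differences from Th17 were -1.25 in Th1 and -1.88 in Th17-derived Th1 (limma adjusted p = 0.02706 and 0.01155), the former lost in 4 of 9 fits without 1 library: those without Th1 replicate 1 or 3 or Th17 replicate 2 or 3 (limma adjusted p up to 0.09105). Tox, a regulator of exhaustion in CD8 cells, was at 2.72, 2.51 and 3.07 FPKM in Th17, 0.914, 1.10 and 0.571 in Th17-derived Th1 and 0.877, 2.77 and 0.569 in Th1. Th17-derived Th1 lay below Th17 without overlap (-1.02; limma adjusted p = 0.04272), a call kept only without Th1 replicate 2 or 3 when 1 library was left out (limma adjusted p up to 0.1238).

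The genes whose pattern over the 9 libraries was nearest to each receptor gene were found by the root-mean-square difference of centred log2(FPKM + 1) values. Pdcd1 had Tnks1bp1 (0.0805) and Uchl1 (0.124) as nearest genes, where the median distance of all genes to Pdcd1 was 0.889. Havcr2 had Tbx21 (0.144) and Hopx (0.183), against a median of 1.5. For Tigit they were Mctp2 (0.164) and Ptpn5 (0.166), and for Lag3 the interferon-inducible Ifi214 (0.370) and Gbp3 (0.389). Ctla4 lay nearest to Ifi27l2a (0.404) and Slc2a6 (0.464), and Btla to Myo10 (0.124) and Zscan12 (0.184). The nearest to Cd160 were Ncald (0.203) and Itgax (0.248), to Cd244a Prr5 (0.243) and Hpgds (0.288), to Cd101 Nt5e (0.32) and Actn1 (0.345), and to Cd200r1 Rnf141 (0.143) and Cpox (0.163). Group means reached below 1 FPKM for Itgax (0.295 to 1.86), Hpgds (0.383 to 5.67) and Ptpn5 (0.575 to 4.70). Itgax is also on the dendritic and macrophage list. Among the receptor genes themselves, the closest pair was Pdcd1 and Tigit (0.351), followed by Btla and Cd200r1 (0.448), and the most distant was Havcr2 and Cd101 (2.68).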

How the data were processed

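Messenger RNA of 9 mouse T helper libraries (3 groups of 3, taken from the sample titles) was read from 1 table of FPKM values for 22017 genes that the authors deposited. Per the submitters' processing notes HISAT2, DESeq2 and the mm10 build were used; the sources used here give neither their versions and roles nor the annotation or the handling of reads with several matches. The table holds no counts, so the depth of each library is unknown and no counting error can be given; the summed FPKM was 382581 to 405985 and 13374 to 14063 genes were above 0 per library.

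Values were tested as log2(FPKM + 1), on which scale all differences and folds are given and which understates changes of low genes. The 10538 genes that reached 1 FPKM in 3 or more libraries were fitted with limma 3.58.1 (R 4.3.3; mean-variance trend, all 9 libraries in 1 fit, 6 residual degrees of freedom before moderation), with two-sided p-values, Benjamini-Hochberg adjustment over all genes tested and a threshold of 0.05. The code was tested on simulated data. The results were checked under 24 alternatives, 1 of which was added after seeing the data. FPKM depends on the makeup of a library, so some of these varied the scaling (equal sums, median-ratio and quantile). The others changed the constant added to FPKM, the filter, the model, the weights, the threshold or the libraries used. Python 3.11.15, pandas 2.3.3 and matplotlib 3.10.9 were used for tables and plots. Gene positions and promoters came from GRCm38, motifs being matched letter by letter.

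The 10 receptor genes and all lists were chosen with earlier results of these data known. Named were the 10 receptor genes, the 2 nearest genes of each, and Cd4, Cd8a and Cd8b1 as level checks. From the lists, genes were named from the up to 4 called genes per direction with the largest difference, but not all of these. For example, Bhlhe40 (2.23) and Nr4a2 (2.13) in Th1 against Th17 were not described above, while Prdm1 (1.96) was. Tnfrsf14, Cd48, Ptpn11, Tox, Lilrb4b and the cell type genes Klrb1c, Klri2, Klre1, Zbtb46 and Lyz2 were named after their values were seen or found to be missing. Tnfrsf4, Tnfrsf9, Tnfrsf18 and Cd27 were named to describe their list. Receptor proteins were not analysed here, nor was a permutation test needed, since all 10 genes passed the filter.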

Additional observations from a re-analysis of the deposited data

How the results depend on the processing

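Of the 23 receptor calls, 11 held under all 24 alternatives: 6 of 7 in Th1 against Th17 (all but Cd200r1), Pdcd1, Havcr2 and Cd244a in Th17-derived Th1 against Th17, and Btla and Cd101 in Th17-derived Th1 against Th1. The number of receptor genes called was 7 in Th1 against Th17 (6 to 8 when 1 library was left out; 9 both with array weights and without the 3 libraries that stand apart, an alternative added after seeing the data). In Th17-derived Th1 against Th17 it was 8, falling to 3 at a threshold of 0.01 and ranging from 4 to 9 when 1 library was left out, and 9 under both of those settings. In Th17-derived Th1 against Th1 it was 8, against 4 with no filter on low values, 3 in a fit of those 2 groups alone, 5 with replicates 1 and 2 only, 2 at a threshold of 0.01, and 2 to 8 when 1 library was left out, while all 10 were called (4 higher, 6 lower) both with array weights and without those 3 libraries. Over all genes, the 4526, 1678 and 1104 calls of the 3 comparisons became 7116, 4603 and 5430 with array weights and 2489, 668 and 307 at a threshold of 0.01. With replicates 1 and 2 only those of Th17-derived Th1 against Th17 and against Th1 became 1036 and 596, and without the 3 libraries that stand apart 3655 and 4850. Those against Th1 fell to 729 with a mean of at least 5 FPKM required and to 703 in a fit of 2 groups. Leaving out 1 library gave as few as 3013, 681 and 315 calls, and as many as 1861 against Th1 (without Th1 replicate 2).

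The direction turned for 3 differences that were not called on all 9 libraries, and Ctla4 and Lag3 were then called the other way under some alternatives. Ctla4 in Th1 against Th17 (-0.24) became 0.32 with array weights, 0.46 without Th1 replicate 2 (limma adjusted p = 0.012; -0.66 to 0.46 over the fits without 1 library) and 0.51 without the 3 libraries that stand apart (limma adjusted p = 0.002988). Cd160 in Th1 against Th17 (0.13) became -0.081 without Th1 replicate 3 and -0.019 without Th17 replicate 2 (-0.081 to 0.37 without 1 library). Lag3 in Th17-derived Th1 against Th1 (0.08) became -0.82 with array weights (limma adjusted p = 0.03658), -0.047 with the CD8 term, -0.034 with replicates 1 and 2 only, -0.57 without Th1 replicate 2, -0.36 without Th17-derived Th1 replicate 3 (-0.57 to 0.41 without 1 library) and -1.01 without the 3 libraries (limma adjusted p = 8.337e-05). In Th1 against Th17, Cd160 was called higher with array weights (0.54; limma adjusted p = 0.02453) and without the 3 libraries (0.58; limma adjusted p = 0.003727), and Btla lower with array weights (-0.46; limma adjusted p = 0.01948). The place of Th17-derived Th1 for Cd244a ranged from 1.30 to 1.48 when 1 library was left out, and that for Cd200r1 (-0.23) from -0.40 to -0.14, with -0.60 from replicates 1 and 2 only. The cause of these changes was not tested.

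Replicate numbers are shared by the groups, but the labels do not say that they pair libraries, and the deviations of same-numbered libraries correlated at -0.18 to 0.66 over 9 pairs, beside -0.65 to 0.46 over 18 pairs of different numbers, so the numbers were not taken as pairs. With the replicate number as a block, 7, 9 and 8 receptor genes were called, the added call being Ctla4 in Th17-derived Th1 against Th17 (limma adjusted p = 0.04922), and 4452, 1681 and 1255 of all genes.

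Of 106 calls of genes in the other lists, 66 held whenever 1 library was left out, 60 held under all alternatives, and 0 turned direction. Over the alternatives, the number of called ligand genes ran from 5 to 9, 4 to 6 and 1 to 6 in the 3 comparisons, of activating counterparts from 5 to 10, 6 to 10 and 1 to 11, of signalling genes from 3 to 11, 0 to 7 and 0 to 12, of other inhibitory receptors from 6 to 11, 3 to 9 and 1 to 12, and of regulators from 11 to 22, 6 to 16 and 3 to 17. With 3 libraries a group and no depth given, the precision rests on the spread between libraries alone.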
